A study of Mus musculus with 9 samples.

Results

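The 9 complement genes followed in mouse ear RNA were C1qa, C1qb, C1qc, C1ra, C1s1, C3, C4b, Cfb and Serping1. They were taken by symbol, through their mouse Ensembl identifiers, as 9 of the 54838 genes in the count tables. Of these 9, 8 passed the filter on low counts and were tested, and Cfb was listed at 0 in all 9 libraries. The ears came from C57BL/6 mice aged 10 weeks, in 3 groups of 3 libraries read by 3' tag RNA-Seq, which reads each transcript near its 3' end. Wild-type (WT) mice received 15 µg of minicircle DNA that encodes either interleukin 23 (IL-23) or, as the control, green fluorescent protein (GFP), and the IL-23 circle was also given to Mdl-1-/- mice. A minicircle is a DNA circle without a bacterial backbone, and all groups shared its delivery by hydrodynamic tail vein injection, which reaches mainly the liver. IL-23 is a cytokine that drives psoriasis-like skin inflammation, and MDL-1 is a receptor of myeloid cells encoded by Clec5a. No Mdl-1-/- group with GFP DNA was analysed here, so a genotype difference present before IL-23 and one that arises under IL-23 cannot be told apart. Nothing in the labels ties each library to an animal of its own, so the spread behind every p-value is that between libraries.

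Complement is a cascade of plasma proteins that tags targets for uptake and calls in inflammatory cells. The classical pathway opens when C1q, built from the chains of C1qa, C1qb and C1qc, binds its target and activates the proteases C1r and C1s, which cleave C4 and C2; the alternative pathway runs on factor B and factor D. Both lead to cleavage of C3, and the C1 inhibitor, encoded by Serping1, blocks C1r and C1s. The liver makes most circulating complement, while in skin macrophages are the known source of C1q, and fibroblasts and keratinocytes make several of the other components.

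The libraries held 3776188 to 5605713 counts. Mitochondrially encoded genes took 12.6% to 15.1% of them with GFP DNA, 8.69% to 8.99% in WT IL-23 ear and 11.4% to 12.9% in Mdl-1-/- ear, and leaving these genes out changed no call among the complement genes followed. Clec5a, the targeted gene, was read in every library, with 2 to 10 counts in the wild-type GFP group, 11 to 21 in the WT IL-23 group and 5 to 13 in the Mdl-1-/- group. The labels do not name the deleted stretch, so these tags are no check on the genotype. As a check of the tissue, the 10 keratinocyte markers were all tested, and their summed level was 9705 to 12759 CPM (counts scaled to library size) with GFP DNA. The hepatocyte markers, listed because the liver makes complement, summed to 0.992 to 6.03 CPM over all libraries, and albumin (Alb) had at most 3 counts in a library.

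The promoter windows are shown for C1ra, one of the genes that rose, for its near-copy C1rb, and for C1qc and C3, since these hold matches to regulatory motifs. RefSeq entries for GRCm38.p6 gave windows of 250 bases before and 50 bases after the start for 5 of the 9 genes (C1qb, C1qc, C1ra, C1s1 and C3). Capitals mark matches, sought on both strands, to the STAT motif TTCNNNGAA (in 8.30% of 32851 promoter windows), the C/EBP motif TTGCGNAA (0.798%), the interferon-stimulated response element (3.44%) and the NF-kappa-B consensus (4.51%). These motifs are bound by transcription factors of cytokine and acute-phase responses. The motifs were chosen with results of these data known. The sequences run 5′ to 3′ along the gene.
C1ra, chr6:124512371-124512670, plus strand: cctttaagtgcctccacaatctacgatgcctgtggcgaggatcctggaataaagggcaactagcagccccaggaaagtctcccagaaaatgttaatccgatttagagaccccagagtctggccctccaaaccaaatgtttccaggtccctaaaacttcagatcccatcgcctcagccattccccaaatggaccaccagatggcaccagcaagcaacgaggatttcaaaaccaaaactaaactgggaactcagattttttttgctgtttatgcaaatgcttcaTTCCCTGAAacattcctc
C1rb, chr6:124570180-124570479, plus strand: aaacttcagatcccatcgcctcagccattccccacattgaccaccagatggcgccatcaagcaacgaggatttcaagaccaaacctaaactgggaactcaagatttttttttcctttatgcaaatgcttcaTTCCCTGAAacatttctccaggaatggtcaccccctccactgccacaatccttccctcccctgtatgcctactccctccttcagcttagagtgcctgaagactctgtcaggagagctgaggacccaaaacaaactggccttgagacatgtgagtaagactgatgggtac
C1qc, chr4:136892865-136893164, minus strand: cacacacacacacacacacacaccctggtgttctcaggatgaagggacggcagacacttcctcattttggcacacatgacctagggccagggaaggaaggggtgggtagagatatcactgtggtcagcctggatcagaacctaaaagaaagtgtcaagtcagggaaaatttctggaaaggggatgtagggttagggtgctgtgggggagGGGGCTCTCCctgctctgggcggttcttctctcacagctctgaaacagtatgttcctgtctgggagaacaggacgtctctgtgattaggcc
C3, chr17:57228087-57228386, minus strand: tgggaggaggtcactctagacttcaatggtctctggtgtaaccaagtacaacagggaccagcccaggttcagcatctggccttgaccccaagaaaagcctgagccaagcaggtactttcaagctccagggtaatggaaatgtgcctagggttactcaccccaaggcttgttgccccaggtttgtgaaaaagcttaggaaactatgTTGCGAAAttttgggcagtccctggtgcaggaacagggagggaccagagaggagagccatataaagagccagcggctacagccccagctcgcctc
The same STAT match stands in the windows of C1ra and C1rb, 32 bases after the RefSeq start of C1ra and 119 bases before that of C1rb. The C/EBP match of C3 lies 45 bases before its start, and the NF-kappa-B match of C1qc 41 bases before. GENCODE M21 places the starts of C1ra, C1rb and C1qc further upstream than RefSeq, so the matches of these 3 genes lie inside the gene spans given with their counts, and only that of C3 lies before its span. The windows of C1qb and C1s1 hold none of the 4 motifs. A match is a description of these letters and not evidence of binding.

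Among the complement genes, C1ra and C1qa rose with IL-23 DNA in wild-type ear, by about 2-fold and 2.5-fold, and the other 6 tested genes did not pass. The comparison asks how these genes respond to IL-23. The count of 2 higher and 0 lower of 8 tested stands beside 22.9% of all 13807 tested genes called higher and 21.7% called lower (edgeR adjusted p under 0.05), or 44.7% in either direction, so the share of complement genes called was not above that of all genes. Their median log2 fold change was 0.30, against -0.044 over all tested genes. The same figures between the genotypes under IL-23 were 1 higher and 0 lower, against 7.58% and 10.1% of all genes, with a median of 0.18 against 0.0016. Between Mdl-1-/- ear with IL-23 DNA and wild-type ear with GFP DNA 1 gene was higher and 1 lower, against 10.2% and 6.93%, with a median of 0.63 against -0.022. With upper-quartile scaling the median over all genes shifted by -0.15 (log2) in the first comparison, and the share of its calls that were higher was 38.9% in place of 51.3%; the other 2 comparisons went from 42.9% to 53.2% and from 59.4% to 43.7%. That scaling changed no call and no direction of the 8 complement genes. The first and the last of these comparisons share the GFP libraries, and the first and second share the WT IL-23 libraries. The second and the last share the Mdl-1-/- libraries.

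**Figure D1:**
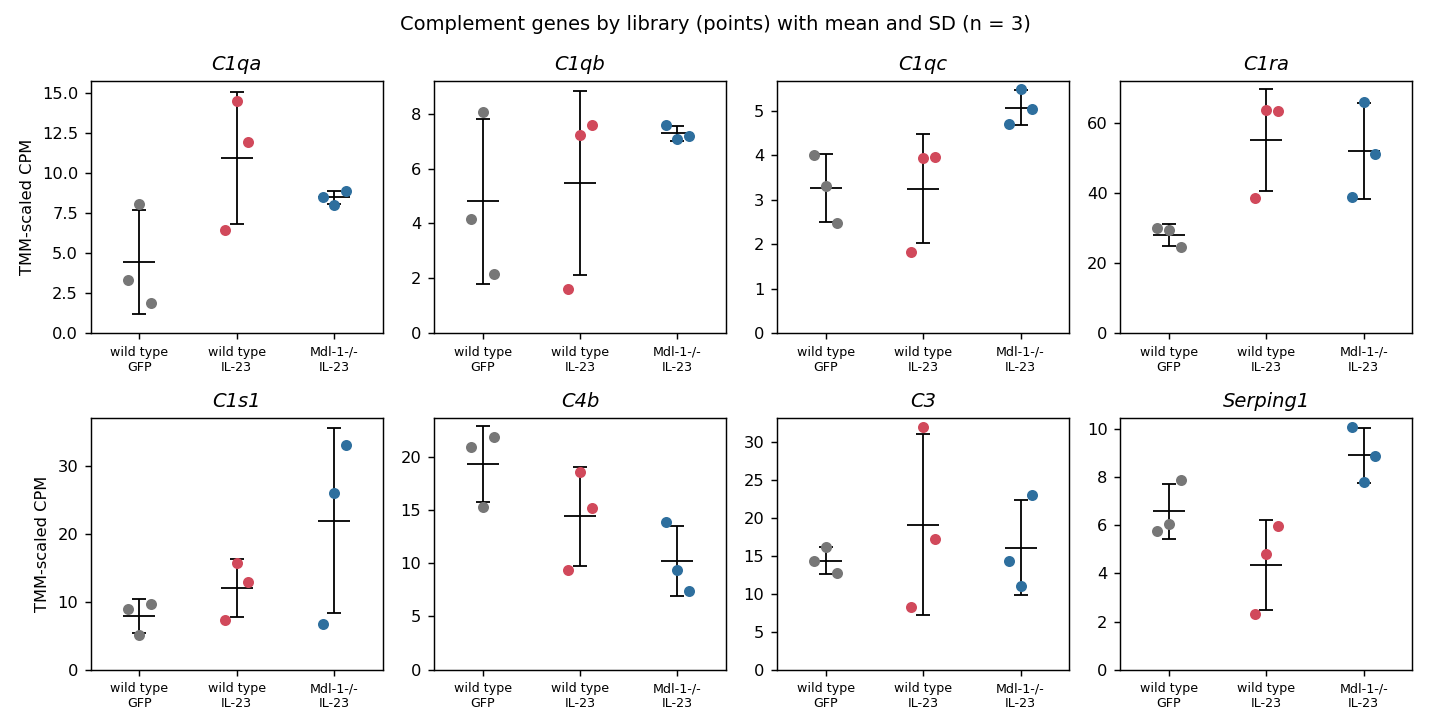
Level of the 8 complement genes that were tested, as CPM scaled by trimmed mean of M-values (vertical axis), in wild-type GFP, WT IL-23 and Mdl-1-/- IL-23 ears. Points are libraries in the order 1 to 3 and bars are mean and SD (n = 3). C1ra is higher in every IL-23 library than in any GFP library, and replicate 1 of the WT IL-23 group is the lowest of its group for all 8 genes.

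C1q is the recognition protein of the classical pathway, and its 3 genes lie next to each other on chromosome 4, on the minus strand of GRCm38. C1qa (ENSMUSG00000036887, 136895917 to 136898803) had 19, 44 and 12 counts with GFP, 28, 66 and 36 in the WT IL-23 libraries and 38, 35 and 37 in Mdl-1-/- ear. Scaled to CPM by trimmed mean of M-values (TMM), these were 3.31, 8.08 and 1.86, then 6.42, 14.4 and 11.9, then 8.50, 8.01 and 8.87. GFP replicate 2 stood above the lowest WT IL-23 library, so the wild-type groups overlapped. C1qa rose 2.5-fold in wild-type ear under IL-23 (log2 fold change 1.32, SE 0.43, edgeR adjusted p = 0.0237). The call was lost without GFP replicate 1 (adjusted p = 0.0832) or 3 (0.0786), and without WT IL-23 replicate 2 (0.110) or 3 (0.0642). C1qa did not differ detectably between the genotypes under IL-23 (log2 difference -0.37, SE 0.41, adjusted p = 0.581). Against the GFP group, the log2 difference of Mdl-1-/- ear was 0.96 (SE 0.44, adjusted p = 0.151), and 1.75 without GFP replicate 2 (adjusted p = 0.00652).

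C1qb (ENSMUSG00000036905, 136880129 to 136886187) had 24, 44 and 14 counts with GFP DNA, 7, 33 and 23 in WT with IL-23 and 34, 31 and 30 in Mdl-1-/- ear. C1qc (ENSMUSG00000036896, 136889804 to 136893065) had 23, 18 and 16 counts, then 8, 18 and 12, then 21, 24 and 21. All 3 Mdl-1-/- libraries of C1qc, at 4.70, 5.49 and 5.03 CPM, stood above all 6 wild-type libraries, the highest of which reached 4.0 CPM. Neither gene passed in any comparison. For C1qb the log2 fold change was 0.18 (SE 0.52, adjusted p = 0.804) for WT IL-23 against GFP, 0.44 (SE 0.51, adjusted p = 0.588) between the genotypes and 0.62 (SE 0.49, adjusted p = 0.426) for Mdl-1-/- IL-23 versus GFP. For C1qc these were -0.018 (SE 0.38, adjusted p = 0.973), 0.66 (SE 0.37, adjusted p = 0.232) and 0.64 (SE 0.35, adjusted p = 0.231). The counts behind these values ran from 7 to 44 in a library.

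Since the 3 chains are assembled into 1 protein, the share of each gene in their summed counts was compared, a measure that does not depend on library scaling. C1qa held 28.8%, 41.5% and 28.6% of C1q counts with GFP, 65.1%, 56.4% and 50.7% in the WT IL-23 libraries and 40.9%, 38.9% and 42.0% in Mdl-1-/- ear. The WT IL-23 libraries did not overlap either other group. Wilson 95% intervals, which cover counting error only, ran from 17.2% to 51.0% over the GFP libraries, from 39.3% to 77.6% over the WT IL-23 libraries and from 29.5% to 52.5% over the Mdl-1-/- libraries. The mean share was 24.5 percentage points higher in WT IL-23 than in GFP ear, and Mdl-1-/- minus WT ear under IL-23 was -16.8 points (exact permutation test, two-sided, p = 0.1 for both, the smallest that 3 libraries against 3 can give). Mdl-1-/- and GFP ear differed by 7.64 points (exact p = 0.3). Over the 18 such comparisons of shares, ratios and sums of these genes the smallest Benjamini-Hochberg adjusted p was 0.18. C1qb held 37.1% ± 4.13, 25.6% ± 8.36 and 35.0% ± 1.33 of C1q counts in the 3 groups (SD, n = 3). The share of C1qc ran from 17.0% to 38.1%, from 15.4% to 18.6% and from 22.6% to 26.7%.

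**Figure D2:**
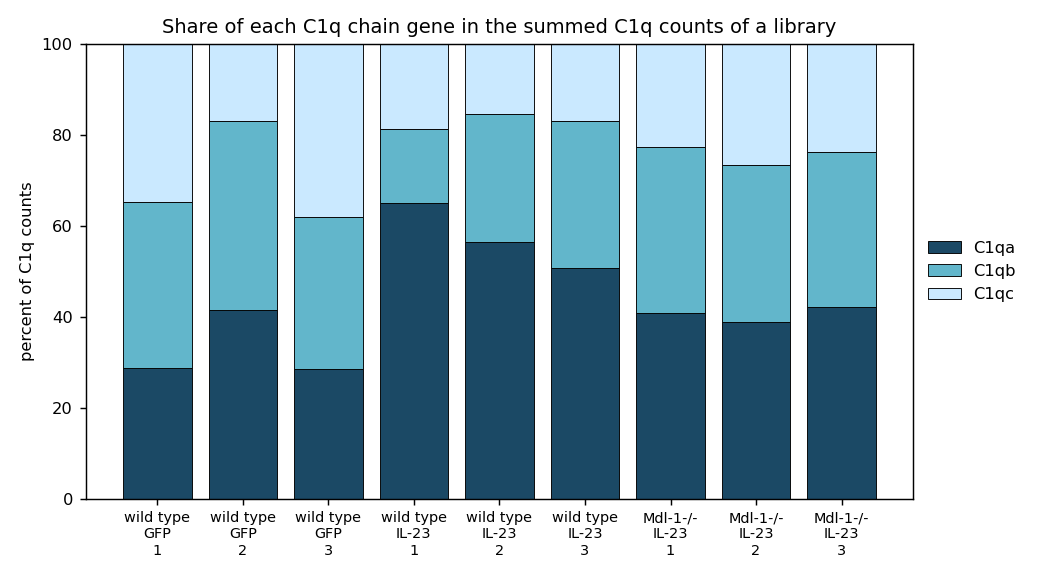
Percent of the summed C1qa, C1qb and C1qc counts (vertical axis) held by each gene in each of the 9 libraries, with 1 bar per library. C1qa takes 50.7% to 65.1% in the WT IL-23 libraries and 28.6% to 42.0% in the others.

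Summed over the 3 chains, C1q reached 12.5 ± 6.54 CPM with GFP DNA, 19.6 ± 8.55 in WT with IL-23 and 20.8 ± 0.252 in Mdl-1-/- ear (SD, n = 3). The Mdl-1-/- sums rest on 93, 90 and 88 counts, whose counting error is wider than that SD. The Mdl-1-/- libraries, at 20.6 to 21.1 CPM, lay above the GFP libraries, at 6.50 to 19.5 CPM (exact permutation p = 0.1), while the WT IL-23 libraries spread over 9.85 to 25.6 CPM (exact p = 0.3 against GFP). Macrophage markers moved in both directions in WT with IL-23: of 10 tested of 13 listed, 1 rose (the receptor gene Csf1r, log2 fold change 1.16) and 3 fell (Cd163, Mertk and F13a1), with a median log2 fold change of 0.52, and Folr2 was at 0 in all libraries. Their summed level was 69.9 to 88.7 CPM with GFP DNA, 62.3 to 99.9 in WT with IL-23 and 76.2 to 93 in Mdl-1-/- ear, and all groups overlapped. Between the genotypes 1 of the 10 tested markers was higher in Mdl-1-/- ear (Cd163, 3.01-fold, edgeR adjusted p = 0.0165) and 0 were lower. For Mdl-1-/- IL-23 versus GFP 0 were higher and 1 lower. Of all tested genes 22.9% were called higher and 21.7% lower in WT with IL-23. These shares were 7.58% and 10.1% between the genotypes and 10.2% and 6.93% for Mdl-1-/- IL-23 versus GFP. The part of macrophage content in the C1q values was not tested, and in whole ear fewer cells of a type and less RNA per cell cannot be told apart. The 5 tested genes closest to the mean C1q pattern, by the root-mean-square difference of log2 CPM centred on each gene's own mean over the 9 libraries, were Ctss, Ms4a6b, Aif1, Hpgd and Gm15922, at 0.23 to 0.31 against a spread of 0.58 in the pattern itself. Ctss encodes the lysosomal protease cathepsin S and Aif1 a macrophage protein that was among the listed markers.

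C1ra and C1s1 encode the C1 proteases, and they lie on chromosome 6 on opposite strands. C1ra (ENSMUSG00000055172, 124512405 to 124523443, plus strand) had 173, 161 and 159 counts with GFP, 168, 292 and 192 in the WT IL-23 libraries and 174, 289 and 214 in Mdl-1-/- ear. In CPM these were 30.1, 29.6 and 24.6, then 38.5, 63.9 and 63.5, then 38.9, 66.1 and 51.3. Every IL-23 library of either genotype stood above every GFP library. C1ra rose 1.97-fold in wild-type ear under IL-23 (log2 fold change 0.97, SE 0.22, edgeR adjusted p = 0.00219). This call held in all 20 alternative fits, including the fit that added the counts of its near-copy C1rb. C1ra was 1.86-fold higher in Mdl-1-/- ear with IL-23 DNA than in GFP ear (log2 fold change 0.89, SE 0.22, adjusted p = 0.0109), a call lost without GFP replicate 3 (adjusted p = 0.0539) or Mdl-1-/- replicate 2 (0.0644). The genotypes differed by -0.083 on the log2 scale under IL-23 (SE 0.21, adjusted p = 0.828).

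C1rb (ENSMUSG00000098470, 124570294 to 124581171, plus strand) is the near-copy of C1ra. Of 251 windows of 50 bases in the last 300 bases of its longest coding transcript 66.1% also occur in C1ra transcripts, while none of those at the end of C1ra occur in another gene, so the C1rb counts are uncertain. C1rb had 64, 40 and 52 counts with GFP DNA, 26, 49 and 27 in WT with IL-23 and 58, 99 and 77 in Mdl-1-/- ear. Its 3 Mdl-1-/- libraries were above all WT IL-23 libraries. The log2 fold change was -0.051 (SE 0.29, adjusted p = 0.900) in WT with IL-23, 1.08 (SE 0.28, adjusted p = 0.0167) between the genotypes (Mdl-1-/- minus WT), and 1.02 (SE 0.27, adjusted p = 0.0152) for Mdl-1-/- IL-23 versus GFP. The genotype call was lost without WT IL-23 replicate 1 (adjusted p = 0.0564) or Mdl-1-/- replicate 2 (0.0607), and the last without GFP replicate 3 (0.0648) or Mdl-1-/- replicate 2 (0.0892). With the counts of C1ra and C1rb summed, the log2 fold change was 0.79 (adjusted p = 0.00877) in wild type, 0.14 (adjusted p = 0.699) between the genotypes and 0.93 (adjusted p = 0.00870) for Mdl-1-/- against GFP.

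C1s1 (ENSMUSG00000038521, 124530345 to 124542359, minus strand) had 51, 28 and 63 counts with GFP DNA, 32, 72 and 39 in WT with IL-23 and 30, 114 and 138 in Mdl-1-/- ear. Its Mdl-1-/- libraries fell far apart, at 6.71, 26.1 and 33.1 CPM, with replicate 1 below every WT IL-23 library. No comparison passed: the log2 fold change was 0.59 (SE 0.56, adjusted p = 0.428) in wild type, 0.87 (SE 0.53, adjusted p = 0.297) between the genotypes and 1.45 (SE 0.54, adjusted p = 0.0979) for Mdl-1-/- IL-23 versus GFP. Without Mdl-1-/- replicate 1 the genotype difference was 1.30 (adjusted p = 0.0181) and that against GFP 1.90 (adjusted p = 0.000467). The latter also passed with DESeq2 (adjusted p = 0.00794), with non-robust dispersions (0.0368) and without a count filter (0.00806), and the authors' deposited table gives it a false discovery rate of 0.0258. The near-copy C1s2 had at most 6 counts in a library and was not tested, and 20.3% of the end windows of C1s1 occur in it. The antisense gene Gm16567, which overlaps 94.9% of C1s1, had 0 counts in all libraries.

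**Figure D3:**
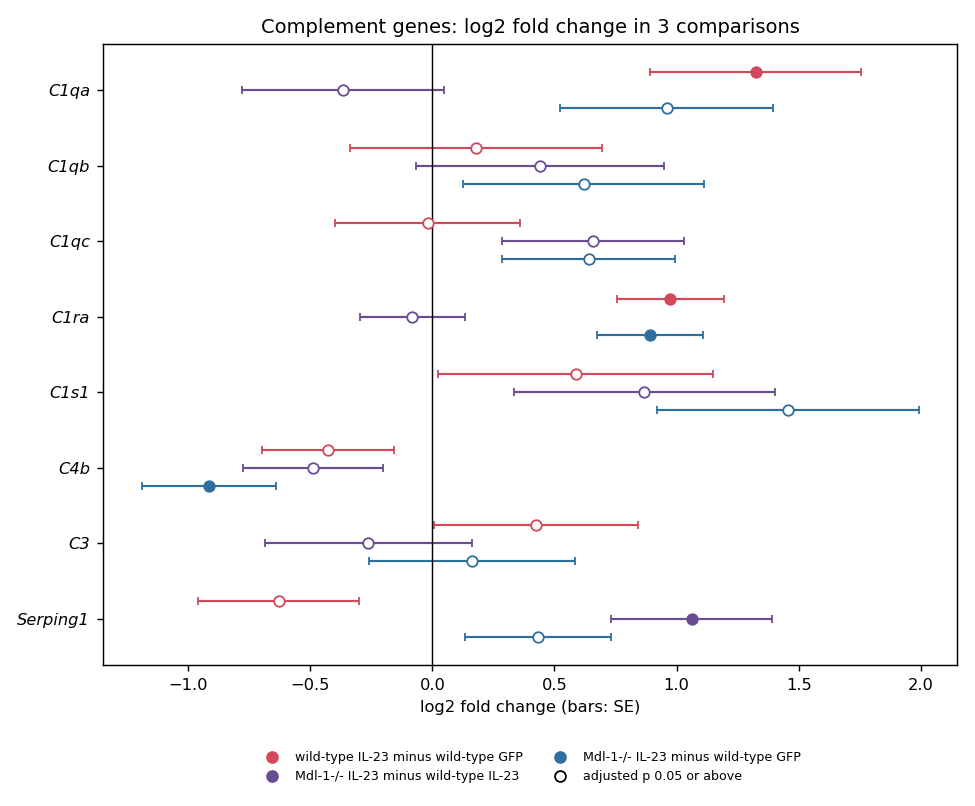
Log2 fold change (horizontal axis, bars are SE) of the 8 tested complement genes in the 3 comparisons. Filled points have an edgeR adjusted p under 0.05: C1qa and C1ra with IL-23 DNA in wild type, Serping1 between the genotypes, and C1ra and C4b for Mdl-1-/- IL-23 versus GFP.

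Serping1 was the only one of the 8 genes called between the genotypes. It encodes the C1 inhibitor, a serpin that inactivates C1r and C1s (ENSMUSG00000023224, chromosome 2, 84765387 to 84775444, minus strand). Its counts were 33, 33 and 51 with GFP DNA, 10, 22 and 18 in WT with IL-23 and 45, 34 and 37 in Mdl-1-/- ear. In CPM these were 5.74, 6.06 and 7.89, then 2.29, 4.82 and 5.95, then 10.1, 7.78 and 8.87. All Mdl-1-/- libraries stood above all WT IL-23 libraries. Serping1 was 2.09-fold higher in Mdl-1-/- than in wild-type ear under IL-23 (log2 fold change 1.06, SE 0.33, edgeR adjusted p = 0.0358). The call was lost without WT IL-23 replicate 1 (adjusted p = 0.117) or 2 (0.0749), and without Mdl-1-/- replicate 1 (0.113) or 3 (0.0738); the authors' deposited table gives a false discovery rate of 0.0690. Its log2 fold change was -0.63 (SE 0.33, adjusted p = 0.132) with IL-23 DNA in wild type and 0.43 (SE 0.30, adjusted p = 0.346) for Mdl-1-/- IL-23 versus GFP.

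Set against the proteases it inhibits, there were 14.7, 17.5 and 23 Serping1 counts per 100 counts of C1ra and C1s1 in the GFP libraries. The ratio was 5.00, 6.04 and 7.79 in the WT IL-23 libraries and 22.1, 8.44 and 10.5 in Mdl-1-/- ear. The WT IL-23 libraries were below all others, and the Mdl-1-/- libraries overlapped those with GFP (two-sided exact permutation test, p = 0.1 for WT IL-23 against GFP, p = 0.1 between the genotypes and p = 0.4 for Mdl-1-/- against GFP, with adjusted values of 0.18, 0.18 and 0.48). C1rb, the near-copy of C1ra, was left out of this ratio. It had 27 counts in WT IL-23 replicate 3 and 99 in Mdl-1-/- replicate 2. With C1rb counted among the proteases these 2 libraries change order, so the genotypes overlap. The separation of the genotypes thus holds for C1ra and C1s1 alone. This ratio was chosen after the counts were seen.

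C4b and C3 encode the thioester proteins that attach to targets. C4b (ENSMUSG00000073418, chromosome 17, 34728380 to 34743882, minus strand) had 120, 83 and 141 counts with GFP DNA, 41, 85 and 46 in WT with IL-23 and 62, 41 and 31 in Mdl-1-/- ear. In CPM these were 20.9, 15.2 and 21.8, then 9.40, 18.6 and 15.2, then 13.9, 9.38 and 7.43. The Mdl-1-/- libraries were all below the GFP libraries and overlapped the WT IL-23 libraries. C4b was 1.88-fold lower in Mdl-1-/- ear with IL-23 DNA than in GFP ear (log2 fold change -0.91, SE 0.28, edgeR adjusted p = 0.0305), while the log2 difference was -0.43 (SE 0.27, adjusted p = 0.209) in WT with IL-23 and -0.49 (SE 0.29, adjusted p = 0.252) between the genotypes. The call was lost without GFP replicate 1 (adjusted p = 0.0977) or 3 (0.125), and without Mdl-1-/- replicate 2 (0.117) or 3 (0.125). The near-copy C4a, which also holds 53.0% of the end windows of C4b, had 2 to 18 counts, and with both summed the call stood (log2 fold change -0.92, adjusted p = 0.0289). The genes closest to the C4b pattern were Rnf128, 4930402H24Rik, Dapk2, Nrcam and Tns3, at 0.18 to 0.23 against a spread of 0.50 in the pattern itself.

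C3 (ENSMUSG00000024164, chromosome 17, 57203970 to 57228136, minus strand), the component on which all pathways converge, had 82, 88 and 82 counts with GFP DNA, 36, 146 and 52 in WT with IL-23 and 64, 48 and 96 in Mdl-1-/- ear. In CPM the GFP libraries lay close together, at 14.3, 16.2 and 12.7, while the WT IL-23 libraries spread over 8.25, 32.0 and 17.2. The Mdl-1-/- libraries were at 14.3, 11 and 23 CPM, and all groups overlapped. No comparison passed: the log2 fold change was 0.42 (SE 0.42, edgeR adjusted p = 0.438), -0.26 (SE 0.42, adjusted p = 0.716) and 0.16 (SE 0.42, adjusted p = 0.830) in the order above. The first of these turned on WT IL-23 replicates 1 and 2: it was 0.81 without replicate 1 (adjusted p = 0.0471) and -0.21 without replicate 2 (adjusted p = 0.666); without replicate 2 the genotype difference was 0.39 (adjusted p = 0.517). The 5 genes closest to the C3 pattern were Zfp951, Gm42937, AC121802.1, Gm43609 and Gm10717, at 0.21 to 0.30 against a spread of 0.53.

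Cfb (ENSMUSG00000090231, chromosome 17, 34856374 to 34862518, minus strand) encodes factor B, the protease of the alternative pathway. It had 0 counts in every library. The annotated gene Gm20547, on the same strand at 34856412 to 34882042, covers 99.4% of Cfb and also had 0 counts, and 84.9% of the end windows of Cfb occur in Gm20547 transcripts. How reads that fall in both genes were counted is not given in the sources used here, so a count of 0 gives no level for Cfb.

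Fibroblast markers, listed as another source of C1ra, C1s1, C4b and Serping1, gave 2 higher and 5 lower of 12 tested of 14 listed with IL-23 DNA in wild type (median log2 fold change -0.93), 1 higher and 1 lower between the genotypes (-0.086) and 0 higher and 2 lower for Mdl-1-/- against GFP (-0.91). Their summed level was 1091 to 1654 CPM with GFP DNA, 615.9 to 1055 in WT with IL-23 and 493.6 to 1085 in Mdl-1-/- ear. The 2 that rose in wild type were Fbln1 (3.05-fold) and Dpp4 (2.74-fold), while Dcn and Gsn fell 2.76-fold and 2.43-fold. Keratinocyte markers gave 8 higher and 0 lower of 10 tested in wild type, 1 higher and 6 lower between the genotypes and 6 higher and 0 lower for Mdl-1-/- IL-23 versus GFP. Between the genotypes Krt10, a keratin of differentiating layers, was 2.95-fold higher in Mdl-1-/- ear. Krt1, of the same layers, went the other way, 1.67-fold lower and not called (edgeR adjusted p = 0.125). Krt6a, Krt16 and Krt17, keratins of stressed epidermis, were 5.11-fold, 3.90-fold and 3.22-fold lower. These opposite changes meet in the sum, which was 26894 to 33854 CPM in WT with IL-23 and 27170 to 29998 in Mdl-1-/- ear. Dendritic and Langerhans cell markers gave 4 higher and 0 lower of 6 tested in wild type and none called between the genotypes, endothelial markers 0 higher and 1 lower of 4 in both. Mast cell markers fell in 3 of 4 tested in wild type and were higher in 3 of 4 in Mdl-1-/- than in WT ear under IL-23. The part of these cell types in the complement values was not tested. Of all tested genes 22.9% were called higher and 21.7% lower in wild type, and 7.58% and 10.1% between the genotypes. For Mdl-1-/- IL-23 versus GFP these shares were 10.2% and 6.93%.

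Of 55 other complement genes listed, 21 were tested and 8 had no count in any library. Under IL-23, 6 of the 21 rose and 4 fell in wild type, between the genotypes 3 were higher and 0 lower in Mdl-1-/- ear, and for Mdl-1-/- IL-23 versus GFP 4 were higher and 2 lower. Over all tested genes, 22.9% were called higher and 21.7% lower in the first of these comparisons. In the second these shares were 7.58% and 10.1%, and in the third 10.2% and 6.93%. None of the 7 genes of the terminal pathway, which builds the membrane attack complex, was tested; the highest count among them was 7, for C6.

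Of 19 listed regulators 7 were tested, with 1 higher and 2 lower in wild type under IL-23, 2 higher and 0 lower between the genotypes and 1 of each for Mdl-1-/- ear versus GFP. The shares of all tested genes called higher and lower were 22.9% and 21.7% in wild type. They were 7.58% and 10.1% between the genotypes and 10.2% and 6.93% for Mdl-1-/- ear versus GFP. The lowest adjusted p among the 7 tested regulators were in Cd59a and Cd55, which encode membrane proteins that protect host cells from complement. Other membrane regulators were not called in wild type: the log2 fold change was -0.017 for Cr1l (SE 0.14, edgeR adjusted p = 0.931) and -0.83 for Cd46 (SE 0.44, adjusted p = 0.135). Cd59a blocks the membrane attack complex. It stood at 83.9, 89.2 and 95.6 CPM with GFP DNA, 17.0, 13.1 and 9.92 in WT with IL-23 and 39.4, 19.4 and 24.7 in Mdl-1-/- ear, with no overlap between any of the groups. Cd59a fell 6.62-fold in WT ear (log2 fold change -2.73, SE 0.24, edgeR adjusted p = 1.42e-06) and was 2.06-fold higher in Mdl-1-/- than in wild-type ear under IL-23 (log2 fold change 1.04, SE 0.25, adjusted p = 0.0111). It was 3.21-fold lower in Mdl-1-/- IL-23 than in GFP ear (adjusted p = 0.000142). The genotype call was lost without WT IL-23 replicate 2 (adjusted p = 0.0509) or Mdl-1-/- replicate 1 (0.0607).

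Cd55 encodes decay-accelerating factor, which breaks up the enzymes that cleave C3. It stood at 13.2, 14.3 and 11.3 CPM with GFP DNA, 2.29, 3.07 and 2.65 in WT with IL-23 and 8.95, 6.18 and 14.4 in Mdl-1-/- ear. The WT IL-23 libraries were below all others, and the Mdl-1-/- libraries overlapped the GFP group. Cd55 fell 4.80-fold in WT ear (log2 fold change -2.26, SE 0.33, edgeR adjusted p = 7.10e-05) and was 3.64-fold higher in Mdl-1-/- than in wild-type ear under IL-23 (log2 fold change 1.86, SE 0.35, adjusted p = 0.00303). Both calls held in all 19 alternative fits that tested it. Mdl-1-/- IL-23 ear and GFP ear differed by -0.40 (SE 0.28, adjusted p = 0.351).

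**Figure D4:**
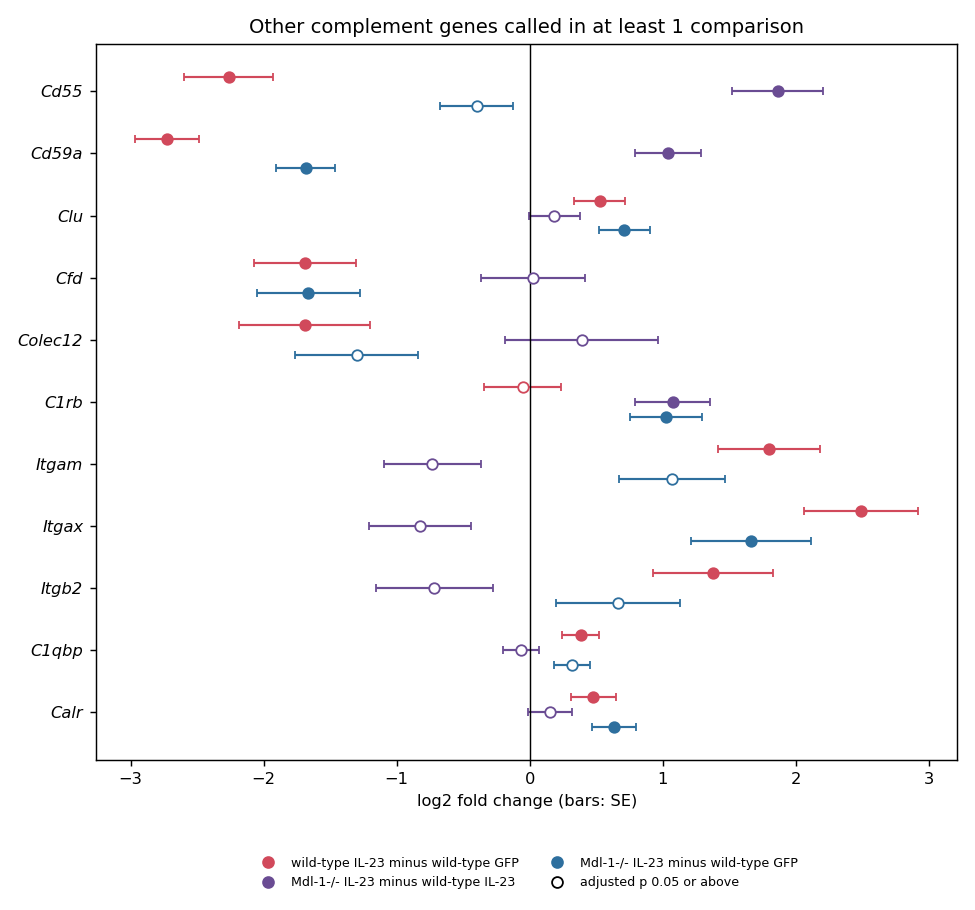
Log2 fold change (horizontal axis, bars are SE) of the 11 other complement genes called in at least 1 of the 3 comparisons, with filled points where the edgeR adjusted p is under 0.05. Cd55 and Cd59a lie far to the left with IL-23 DNA in wild type and to the right between the genotypes.

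Of 8 tested receptor genes 5 rose under IL-23 in wild type, where 22.9% of all tested genes were called higher. No receptor gene was called between the genotypes, where 7.58% of all tested genes were higher and 10.1% lower. Itgam, Itgax and Itgb2, which encode the chains of complement receptors 3 and 4 on myeloid cells, rose 3.49-fold, 5.63-fold and 2.60-fold (edgeR adjusted p = 0.00135, 0.000265 and 0.0203). The Itgb2 call was lost without GFP replicate 1 (adjusted p = 0.0835) or 3 (0.0826) or WT IL-23 replicate 3 (0.0649). C3ar1, the receptor for the C3a fragment, had a log2 fold change of -0.69 (SE 0.45, adjusted p = 0.226). Calr and C1qbp, both C1q-binding proteins with other roles in the cell, rose 1.40-fold and 1.30-fold (adjusted p = 0.0287 and 0.0330), and neither passed with upper-quartile scaling (adjusted p = 0.111 and 0.174). Clu, an inhibitor of the terminal complex, rose 1.44-fold (adjusted p = 0.0369) and did not pass with that scaling either (adjusted p = 0.122). These 3 small changes also failed in fits lacking GFP replicate 1, GFP replicate 3 or WT IL-23 replicate 1, at adjusted p from 0.0527 to 0.160, and Calr failed without WT IL-23 replicate 3 (0.0699), C1qbp and Clu without WT IL-23 replicate 2 (0.0794 and 0.158). In total C1qbp lost its call in 7 alternative fits, Clu in 6 and Calr in 5, so not every such fit of C1qbp and Clu is named. Against the GFP group, Mdl-1-/- IL-23 ear was higher in Itgax (3.18-fold, adjusted p = 0.0183), Clu (1.64-fold, 0.0179) and Calr (1.55-fold, 0.0160). Each of these calls was lost without GFP replicate 3 (adjusted p = 0.0690, 0.0623 and 0.0761), those of Clu and Calr also without GFP replicate 1 (0.0793 and 0.0565) or Mdl-1-/- replicate 2 (0.109 and 0.0986), and that of Itgax without Mdl-1-/- replicate 3 (0.109) or with limma voom (0.0527). Between the genotypes the log2 differences of Itgam, Itgax and Itgb2 were -0.73, -0.83 and -0.72 (adjusted p = 0.173, 0.146 and 0.271). Neutrophil markers rose in 6 of 6 tested genes in wild type, and between the genotypes 3 of 6 were lower in Mdl-1-/- ear; their part in the receptor values was not tested.

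Cfd, which encodes factor D (adipsin), a product of fat cells, stood at 78.0, 146 and 215 CPM with GFP DNA, 45.6, 54.7 and 35.4 in WT with IL-23 and 45.6, 31.8 and 61.6 in Mdl-1-/- ear. It fell 3.22-fold in WT ear (log2 fold change -1.69, SE 0.39, edgeR adjusted p = 0.00797) and was 3.17-fold lower in Mdl-1-/- IL-23 than in GFP ear (adjusted p = 0.0205). The second call was lost without GFP replicate 2 (adjusted p = 0.0625), Mdl-1-/- replicate 1 (0.0635) or Mdl-1-/- replicate 2 (0.0676), and in the fit of these 2 groups alone (0.0551). Adipocyte markers fell in 6 of 6 tested genes in wild type, against 21.7% of all tested genes. For Mdl-1-/- ear versus GFP 0 of these markers were higher and 5 lower, against 10.2% and 6.93%. Their summed level was 177 to 398 CPM with GFP DNA, 36.4 to 68.3 in WT with IL-23 and 43.7 to 79.4 in Mdl-1-/- ear; their part in the Cfd value was not tested. Colec12, a scavenger receptor collectin, fell 3.23-fold in wild type (adjusted p = 0.0113). Among 14 genes related to the C1q chains by their globular domain, 3 were tested and all 3 fell in wild type: C1qtnf4 (log2 fold change -1.55), C1qtnf12 (-0.77) and Adipoq (-1.95), the fat cell hormone adiponectin, which is also among the adipocyte markers.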

How the data were processed

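Ear RNA in 9 libraries, 3 per group, was read by 3' tag RNA-Seq. Per the submitters' processing notes, STAR 2.7.0a, featureCounts and edgeR were used, and the build is listed as GRCh38.p6, a human name, while the identifiers are those of mouse. The authors deposited raw counts per Ensembl gene. In the comparison tables they deposited are p-values, false discovery rates, log2 fold changes and mean log2 CPM. The table comparing the IL-23 groups subtracts Mdl-1-/- from wild type, and its sign was turned here. Strand settings and the treatment of reads in more than 1 gene were not found in those notes.

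Each library stood in 2 tables with identical values. The 54838 genes were named from GENCODE M21 on GRCm38. edgeR 4.0.16 in R 4.3.3 was used with filterByExpr (minimum count 10, minimum total 15), which left 13807 genes, TMM scaling, 1 model over all 9 libraries and robust quasi-likelihood F-tests with 6 residual degrees of freedom. Calls had a Benjamini-Hochberg adjusted p under 0.05 over all tested genes. Standard errors came from the F statistic. DESeq2 1.42.0 and limma voom (limma 3.58.1) were alternatives, as were scaling, filter, samples in the fit, a replicate block and leaving out each library. The fitting code was tested on simulated data. A count of 0 allows up to 0.535 to 0.794 CPM (3 counts) on raw library totals. This bound is not TMM-scaled, and on the TMM scale of the values above it differs by library.

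Members and gene lists were chosen with earlier results of these data known. All 9 members are named; other complement genes are named where called in at least 1 comparison, and near-copies and marker genes by name. For the mean of the C1q chains, C3 and C4b the 5 genes closest in pattern are named; for Cfb, at 0, none could be. C3ar1, C6, Cr1l, Cd46 and the genes related to the C1q chains were named after their values were seen. A further gene of the macrophage marker list is not reported here and was left out of that list after its values were seen.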

Additional observations from a re-analysis of the deposited data

How the results depend on the processing

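C1ra with IL-23 DNA in wild type kept its direction and call in all fits run, and the calls of C1qa, Serping1 and C4b were lost only where 1 library was left out. The count of complement genes called, out of 8 tested, ran from 1 to 3 over fits without 1 library for WT IL-23 against GFP, from 0 to 1 between the genotypes and from 0 to 3 for Mdl-1-/- IL-23 versus GFP, where it was 4 without a count filter (C1qa and C1s1 added, adjusted p = 0.0300 and 0.00806). Other complement genes called ran from 6 to 10, 2 to 3 and 2 to 7 in these fits, with 5 at a minimum count of 30 in the first comparison. Genes called over the whole table ran from 4622 to 6352, 1128 to 2802 and 1340 to 2580, lowest between the genotypes without WT IL-23 replicate 2 or 3 or Mdl-1-/- replicate 1 or 3 and lowest in the last comparison without GFP replicate 3 or Mdl-1-/- replicate 2. The difference in the C1qa share ran from 20.6 to 28.7 points, from -20.2 to -13.0 and from 5.45 to 11.9. Signs turned for values that were not called. Without 1 library each, the log2 fold change in wild type ran from -0.19 to 0.79 for C1qb (turned without GFP replicate 3 or WT IL-23 replicate 2 or 3), -0.22 to 0.29 for C1qc (GFP replicate 1 or 2, WT IL-23 replicate 1), -0.21 to 0.81 for C3 (WT IL-23 replicate 2) and -0.27 to 0.17 for C1rb (GFP replicate 1, WT IL-23 replicate 1). Between the genotypes it ran from -0.019 to 0.77 for C1qb (WT IL-23 replicate 1), -0.29 to 0.091 for C1ra (WT IL-23 replicates 2 and 3, Mdl-1-/- replicate 1), -0.64 to 0.39 for C3 (WT IL-23 replicate 2), -0.19 to 0.032 for C1qbp, -0.0085 to 0.32 for Calr and -0.22 to 0.24 for Cfd, and against GFP from -0.16 to 0.39 for C3 (Mdl-1-/- replicate 3). Other settings turned C1qc in wild type with RLE scaling (0.0032) or DESeq2 (0.0043), and between the genotypes C1ra with copies summed (0.14) and Cfd with limma voom (-0.018) or the replicate block (-0.029). The cause was not tested.

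The labels tie same-numbered libraries by number only and name no batch. The correlation of their deviations from group means ran from -0.086 to 0.23 over 9 pairs. The 2 highest correlations between groups were of same-numbered pairs (0.23 and 0.18), and 4 of 9 libraries matched their own number best. With the replicate block 6257, 2800 and 2682 genes were called, against 6169, 2439 and 2359 in the main fit. Of the complement genes 2, 1 and 2 were called with the block. That block changed no call named here. Libraries of a group differed by more than sampling noise (chi-square per gene 4.64 or more). The C1q chains and Serping1 had low counts, which widens their counting error.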
